A study of Mus musculus with 4 samples.

Results

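The Skint genes (selection and upkeep of intraepithelial T cells) encode immunoglobulin-like membrane proteins of keratinocytes, and Skint1 to Skint10 were followed here through the epidermis of 4 mice. The members were taken by gene symbol and were 10 of the 32479 genes in the tables. All mice were C57BL/6N females at postnatal day 19 that carried floxed alleles of the ceramide synthase gene CerS4. The 2 control mice were CerS4fl/fl without Cre, and the 2 CerS4epi-/- mice were CerS4fl/fl with Cre under the keratin-14 promoter (K14-Cre). K14-Cre acts in keratinocytes from the basal layer on, and that promoter is also active in thymic epithelium, which was not sampled. Back skin was dissociated, cells were labelled with sample tags for multiplexing, and single cells were captured on the BD Rhapsody. This platform tags transcripts with molecular identifiers. Which mice shared a cartridge is not stated, and the counts given for each mouse are called its library here.

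Epidermal gamma delta T cells, the dendritic epidermal T cells of the mouse, develop in the fetal thymus and then seed the skin. Skint1 is known for its role in the selection of these cells by thymic epithelium, and it is also expressed by suprabasal keratinocytes. The other members resemble Skint1 in sequence, and most have no settled function. In the interfollicular epidermis (IFE), keratinocytes leave the basal layer, turn on Krt1 and Krt10 in the spinous layer and then make the cornified envelope, with loricrin (Lor), in the granular layer.

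The 10 genes lay together on chromosome 4, at chr4:111776589-113856700 of GRCm39, an interval of 2.08 Mb with no other protein-coding gene in the annotation used. From the lower coordinate the order was Skint8, Skint7, Skint1, Skint4, Skint3, Skint9, Skint2, Skint10, Skint6 and Skint5, with 6 genes on the plus strand and 4 on the minus strand. Skint7 (ENSMUSG00000049214, chr4:111830120-111845814, plus strand) and Skint1 (ENSMUSG00000089773, chr4:111863466-111886735, plus strand) were neighbours, 17.65 kb apart. Skint6 (ENSMUSG00000087194, chr4:112661813-113144170, minus strand) and Skint5 (ENSMUSG00000078598, chr4:113334894-113856700, minus strand) lay at the other end, 190.7 kb apart.

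The 250 bases before the RefSeq start (GRCm38.p6) are shown for those pairs, because the neighbours Skint1 (chr4:112006019-112006268, plus strand) and Skint7 (chr4:111972677-111972926, plus strand) had a layer pattern of their own, and because Skint5 (chr4:113999504-113999753, minus strand) and Skint6 (chr4:113286974-113287223, minus strand) have nearly the same promoter. In Skint1 and Skint7, capitals mark the match to the TATA box letters TATAAA on either strand. In Skint5 and Skint6, capitals mark the 28 positions at which these promoters differ from each other.
Skint1: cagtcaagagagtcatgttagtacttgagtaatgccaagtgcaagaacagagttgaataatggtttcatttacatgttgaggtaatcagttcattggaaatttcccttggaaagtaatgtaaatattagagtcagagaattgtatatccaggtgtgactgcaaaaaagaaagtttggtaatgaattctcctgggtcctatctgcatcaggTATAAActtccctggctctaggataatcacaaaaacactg
Skint7: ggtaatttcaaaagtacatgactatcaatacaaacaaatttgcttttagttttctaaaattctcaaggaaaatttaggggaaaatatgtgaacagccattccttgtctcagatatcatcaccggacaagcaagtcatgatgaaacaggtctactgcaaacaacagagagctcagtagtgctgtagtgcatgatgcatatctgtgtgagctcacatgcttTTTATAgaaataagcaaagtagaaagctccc
Skint5: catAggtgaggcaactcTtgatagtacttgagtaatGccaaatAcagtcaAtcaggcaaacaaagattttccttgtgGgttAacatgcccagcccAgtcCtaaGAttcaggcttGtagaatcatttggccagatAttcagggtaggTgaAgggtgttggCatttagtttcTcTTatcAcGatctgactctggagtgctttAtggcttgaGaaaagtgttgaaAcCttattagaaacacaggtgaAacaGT
Skint6: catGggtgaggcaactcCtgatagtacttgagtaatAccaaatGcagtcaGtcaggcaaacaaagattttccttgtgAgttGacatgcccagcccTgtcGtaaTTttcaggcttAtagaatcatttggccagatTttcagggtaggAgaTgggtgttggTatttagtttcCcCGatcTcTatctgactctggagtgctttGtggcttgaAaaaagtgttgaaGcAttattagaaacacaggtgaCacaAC

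All 10 members matched a RefSeq promoter, in 11 entries. Skint5 and Skint6 were 88.8% identical over these 250 bases, whereas the 55 pairs of entries had a median identity of 47.5% and no other pair passed 60%. TATAAA was present on either strand in 6 of the 11 entries and in 12.4% of all 32851 promoters, and in Skint1 and Skint7 the match began 40 and 31 bases before the start. The AP-1 letters TGANTCA (6.75% of all promoters), the octamer ATGCAAAT (1.60%) and the forkhead letters TGTTTAC (3.17%) had no match in the windows of the members. The files share a read that maps to several genes between them by estimation, which leaves fractional counts. Such entries made up 13.4% of the counts of Skint5 and 10.3% of those of Skint6, so that these 2 genes are less certain to be told apart, against at most 1.65% for the other 8 members. In spliced transcripts, 2.57% of the 60-base words of Skint5 and 3.16% of those of Skint6 occurred in the other gene, as did 5.0% for Skint7 and 4.64% for Skint8.

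The libraries held 39231945 to 53106317 counts, and 34147 cells were kept, with median depths of 3266 to 3884 counts. Cers4, the targeted gene, was at 1.03 and 0.690 CPM (counts of the gene per 1000000 counts) in basal-like cells of the control mice and at 0.767 and 1.09 CPM in those of the CerS4epi-/- mice, too low to check the deletion. Cells were clustered without the Skint genes and named from marker lists, which gave 16963 IFE basal-like, 6413 IFE differentiated-like, 2924 IFE keratinized-like, 5303 upper hair follicle-like, 457 T cell-like and 212 Langerhans cell-like cells. Differentiated-like cells made up 21.5% and 22.8% of cells in the control mice and 15.9% and 14.4% in the CerS4epi-/- mice, and cells over 10% mitochondrial counts 30.7% and 28.9% against 49.2% and 46.6%. The libraries of a genotype shared no barcode, where random draws of that size would share 87.1 and 77.1, while libraries of unlike genotype shared 64 to 102. Any handling common to the mice of a genotype cannot be told apart from the genotype.

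Along differentiation the members followed 2 courses, an early one in Skint1 and Skint7 and a late one in the other 8 genes. For this description 7 IFE clusters were put in order by their markers, as steps 1 to 7. Steps 1 and 2 are part of the basal-like class, and step 2 also carried Krt1 and Krt10, at means of 4933 and 11090 CPM. Krt14, a basal keratin, went from a mean of 7352 CPM at step 1 to 90.7 CPM at step 3, Krt77, a suprabasal keratin, was highest at step 5 with 31600 CPM, and Lor reached 71870 CPM at step 7. A level in CPM is relative to all counts of the summed cells of a mouse. It is not corrected for gene length, so it is compared between cells and not between genes.

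Skint1 was at 49.2 and 55.0 CPM in the control mice and at 46.05 and 47.6 CPM in the CerS4epi-/- mice at step 1, and at 90.6, 105.8, 89.2 and 99.7 CPM at step 3, in Krt1-high cells that had lost Krt14. All 4 mice had their highest Skint1 level there. From step 3 on it was lower at each step in every mouse, with a mean of 43.8 ± 8.69 CPM (SD, n = 4) at step 4, 14.2 ± 3.74 CPM at step 6 and 4.26 ± 1.42 CPM at step 7. Its share of all Skint counts went from 26.0% at step 1 to 0.44% at step 5. Between the classes, Skint1 was higher in differentiated-like than in basal-like cells by 0.53 ± 0.12 (log2, SE; adjusted p = 0.00113) and lower in keratinized-like than in differentiated-like cells, by -2.01 ± 0.14 (adjusted p = 2.57e-09). Both tests were quasi-likelihood tests of edgeR, and p was adjusted over all genes after Benjamini and Hochberg.

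Skint7, the neighbour of Skint1, was highest 1 step sooner, at step 2 in all 4 mice, with a mean of 88.7 ± 17.0 CPM (SD, n = 4), and was at 20.4 ± 2.84 CPM at step 5. Unlike Skint1 it was higher again at step 6, at 30.0 and 32.2 CPM in the control mice and 49.4 and 56.7 CPM in the CerS4epi-/- mice. Its difference between differentiated-like and basal-like cells was 0.51 ± 0.19 on the log2 scale (edgeR, adjusted p = 0.0285), and the adjusted p was 0.0572 without control replicate 1 and 0.0819 without CerS4epi-/- replicate 1.

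**Figure D1:**
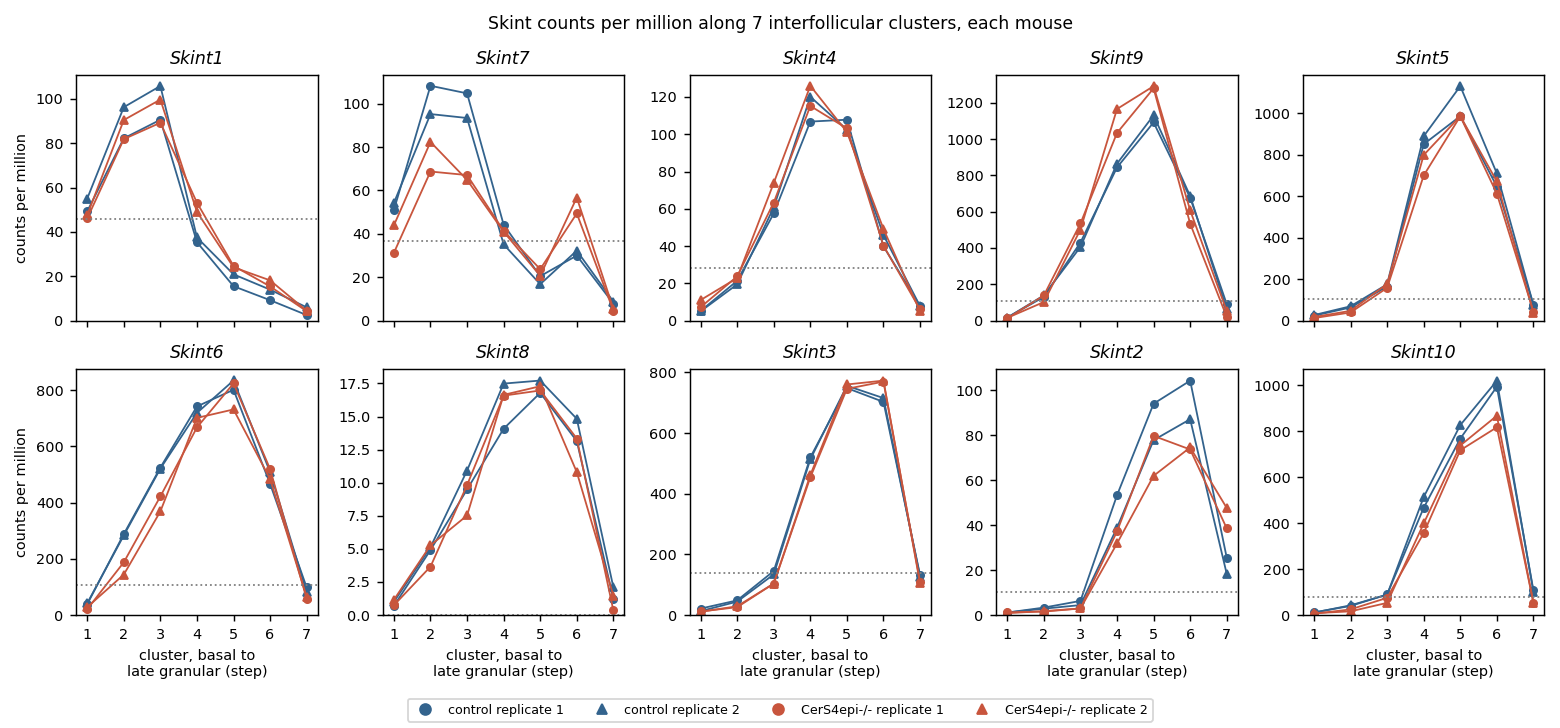
Levels in CPM of the 10 Skint genes (y axis, linear, own range per gene) at 7 steps of interfollicular differentiation (x axis, 1 basal to 7 late granular); each line is 1 mouse and the dotted line is the highest level in the T cell-like or Langerhans cell-like cells of any mouse. Skint1 and Skint7 are highest at steps 3 and 2, and the means of the other 8 members are highest between steps 4 and 6 and lower at step 7 than at those peaks, for Skint2 at 32.5 against 84.9.

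Among the 7 steps, the other 8 members were highest in upper spinous and granular cells. Outside the steps, Skint2 and Skint8 had higher means in the upper hair follicle-like cluster led by Cst6 and Sprr1a. These means were 137.7 and 24.0 CPM, against 84.9 and 17.2 CPM at their highest steps. Skint4 had a mean of 128.6 CPM there and 117.0 CPM at step 4. It was above its step 4 level in the control mice only. Skint9, the member with most counts, went from 14.9 ± 1.94 CPM (SD, n = 4) at step 1 to 468.1 ± 60.4 CPM at step 3 and 1199 ± 102 CPM at step 5, 80.7 times its basal level. Skint10 went from 8.94 ± 2.62 CPM at step 1 to 76.5 ± 17.0 CPM at step 3 and 924 ± 97.5 CPM at step 6, 103 times its basal level. Skint2 was highest at step 6 as well, with a mean of 84.9 CPM, whereas Skint3, Skint5, Skint6, Skint8 and Skint9 had their highest means at step 5 and Skint4 at step 4. The members thus differed in when they came up. At step 3 Skint6 had 459.1 CPM of its highest mean of 797.8 CPM, and Skint2 had 4.15 CPM.

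At step 7, in cells high in Lce1m and Lor, each of the 10 genes was below its highest mean. The summed level of the family was 4650 and 4914 CPM in the control mice and 4801 and 4732 CPM in the CerS4epi-/- mice at step 5, and 547.6, 489.5, 338.5 and 376.2 CPM at step 7, 10.9 times lower over the 4 mice. Over the 4 mice Skint1 was 22.6 times lower at step 7 than at its peak and Skint2 2.61 times. For Skint2 the genotypes differed: it was at 104.3 and 87.15 CPM in the control mice and at 73.7 and 74.6 CPM in the CerS4epi-/- mice at step 6, and at 25.5 and 18.3 CPM against 38.6 and 47.7 CPM at step 7. There it was higher in CerS4epi-/- mice, by 1.14 ± 0.22 (log2, edgeR for step 7 alone, adjusted p = 0.00669), a test added after the data had been seen. Lor went from 1108 to 71870 CPM between steps 5 and 7, and its part in the lower levels was not tested.

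Tested over the 16 sums of 4 classes and 4 mice, all 10 members were higher in differentiated-like than in basal-like cells, where 60.7% of all genes passed the test in either direction and 29.5% were higher. The median over the members was 3.20 on the log2 scale, beside -0.026 over all genes. Skint10 (4.16 ± 0.12, adjusted p = 2.34e-13), Skint5 (4.13 ± 0.13, adjusted p = 4.98e-13), Skint9 (3.97 ± 0.14, adjusted p = 9.44e-13) and Skint2 (3.94 ± 0.14, adjusted p = 1.81e-12) had the largest differences in edgeR's test.

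From differentiated-like to keratinized-like cells 5 members were higher and 2 lower, where 77.6% of all genes passed, 36.9% higher and 40.7% lower. Skint2 (2.40 ± 0.10, adjusted p = 3.22e-12) and Skint10 (2.13 ± 0.11, adjusted p = 2.97e-11) rose further, Skint3 and Skint5 rose by 1.58 and 0.70, and Skint1 and Skint4 fell (edgeR, Benjamini-Hochberg). The keratinized-like class joins step 6, with 1906 cells, and step 7, with 1018 cells, which lay far apart in these genes. Without Harmony, and with another clustering seed, the class held none of the step 6 cells. A cluster with the leading genes of step 6 was then left unnamed by the marker rule. Skint2 was still higher then, while Skint3, Skint5 and Skint10 were lower, by -0.50, -1.98 and -0.98 without Harmony. The rise of Skint8, 0.26 ± 0.11 (adjusted p = 0.0398), became a fall without TMM factors, by -0.43, and its adjusted p was 0.127, 0.1235 and 0.117 without control replicate 1, control replicate 2 and CerS4epi-/- replicate 1. Without those factors the rise of Skint5 was 0.01 (adjusted p = 0.964) and not called, and its mean levels were 472.9 CPM in differentiated-like and 470.0 CPM in keratinized-like cells. With them left out the median of all genes shifted by -0.69 (log2) and 24.7% of the calls were higher, against 47.5%.

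Upper hair follicle-like cells, which carry Krt79 and Krt17, also held most of the family. Compared with basal-like cells 8 members were higher and 1 lower, where 67.3% of all genes passed, 32.7% higher and 34.6% lower. Skint2 was higher by 5.95 ± 0.13 (adjusted p = 3.64e-14), Skint10 by 4.05 ± 0.12 (adjusted p = 3.55e-13) and Skint3 by 3.70 ± 0.11 (adjusted p = 4.85e-13) in edgeR's test. Skint7 was lower, by -1.82 ± 0.25 (adjusted p = 8.80e-06). Skint2 was at 109.0 and 88.9 CPM in the control mice and at 75.5 and 67.0 CPM in the CerS4epi-/- mice in these cells, and in keratinized-like cells at 80.0 and 67.55 CPM against 61.9 and 65.55 CPM. Each mouse thus had its highest class level of Skint2 in the upper hair follicle. Step 6, a part of the keratinized-like class, was above that class level in CerS4epi-/- replicate 2, at 74.6 CPM, and below it in the other mice. The upper hair follicle-like cluster led by Cst6 was above step 6 in each mouse. Skint2 was there at 196.5 and 154.5 CPM in the control mice and at 102.5 and 97.3 CPM in the CerS4epi-/- mice.

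T cell-like and Langerhans cell-like cells, which are not known for these genes, were taken as a background. The family summed to 119 to 309 CPM in T cell-like cells and to 235 to 507 CPM in Langerhans cell-like cells. Basal cells of step 1, at 149 to 224 CPM, did not exceed these. Skint1 at step 1 was just above its T cell-like range of 5.22 to 45.6 CPM, whose upper end rests on 6 counts of control replicate 2, and above its Langerhans cell-like range of 9.29 to 36.0 CPM. Skint7 at step 1, at 31.3 to 54.3 CPM, overlapped its T cell-like range of 0 to 36.85 CPM in CerS4epi-/- replicate 1. For Skint10 the basal-like levels of 10.7 to 21.1 CPM were close to the T cell-like ones of 10.4 to 18.4 CPM, so that basal levels of the late members are read with that background.

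In single cells of step 5 several members were found together. With each cell thinned to 1200 counts, 96.7% of step 5 cells had at least 2 of the 10 genes (99.8% unthinned, at median depths of 11340 to 13742 counts), compared with 2.0% of T cell-like cells (5.3% unthinned, at median depths of 1540 to 1903 counts). The mean number of members in a step 5 cell was 3.55 thinned and 6.62 unthinned. Thinned cells with at least 2 members were 2.2% at step 1 and 6.5% at step 7 (10.4% and 45.6% unthinned). In the basal-like class they were 5.4% (19.3% unthinned). How far joint detection follows from the level of each gene was not tested. Skint9 was found in 73.3%, 73.8%, 76.1% and 80.1% of thinned step 5 cells in the 2 control and the 2 CerS4epi-/- mice, and in 2.16% to 6.06% of thinned T cell-like cells. Unthinned these ranges were 97.3% to 98.5% and 3.77% to 10.6%.

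The comparison of the genotypes asked whether the levels of these genes differed with the loss of the ceramide synthase in keratinocytes. Skint10 was lower in CerS4epi-/- mice in all 4 classes. In differentiated-like cells it was at 272.3 and 315.5 CPM in the control mice and at 193.2 and 205.8 CPM in the CerS4epi-/- mice, and in upper hair follicle-like cells at 295.0 and 283.7 CPM against 183.3 and 153.8 CPM. The genotypes did not overlap in any of the 4 classes. The log2 fold changes were -0.82 ± 0.11 in basal-like (adjusted p = 0.00616), -0.57 ± 0.09 in differentiated-like (adjusted p = 0.006455), -0.26 ± 0.07 in keratinized-like (adjusted p = 0.03465) and -0.70 ± 0.10 in upper hair follicle-like cells (adjusted p = 0.00128, all edgeR with Benjamini-Hochberg adjustment). In keratinized-like cells the call was lost without control replicate 2 (adjusted p = 0.141), CerS4epi-/- replicate 1 (0.121) or CerS4epi-/- replicate 2 (0.0801).

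Within single clusters, each fitted alone after the data had been seen, Skint10 was called lower at 3 of the 7 steps. At step 2 it was at 39.6 and 42.3 CPM in the control mice and at 24.6 and 16.1 CPM in the CerS4epi-/- mice, at step 4 at 466.4 and 512.9 CPM against 356.4 and 398.3 CPM, and at step 7 at 107.0 and 100.4 CPM against 54.0 and 53.1 CPM. It was not called at steps 1, 3, 5 and 6 (edgeR, adjusted p = 0.1375, 0.1025, 0.466 and 0.0712). Where it stood highest the differences were small, -0.12 ± 0.08 at step 5 and -0.20 ± 0.06 at step 6 on the log2 scale. Of the 3 upper hair follicle-like clusters, the largest, led by Krt79 and Defb6, held 288.9 and 268.6 CPM in the control mice and 205.2 and 181.2 CPM in the CerS4epi-/- mice (adjusted p = 0.00992). The one led by Cst6 and Sprr1a held 181.0 and 179.1 CPM in the control mice and 46.2 and 31.5 CPM in the CerS4epi-/- mice, and in the one led by 2310046K23Rik, at 370.2 and 380.7 CPM against 369.9 and 375.5 CPM, the genotypes overlapped. These clusters took different shares of the class: the Cst6 cluster had 164 and 84 cells in the controls, and 437 and 463 in the CerS4epi-/- mice. In T cell-like cells Skint10 was at 10.4 and 15.2 CPM against 13.65 and 18.4 CPM, an overlap.

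Skint6 and Skint5 were lower in the sums of upper hair follicle-like and of basal-like cells. In upper hair follicle-like cells Skint6 was at 300.5 and 364.3 CPM in the control mice and at 144.2 and 112.4 CPM in the CerS4epi-/- mice, a log2 fold change of -1.29 ± 0.13 (edgeR, adjusted p = 0.000107). Skint5 was at 116.9 and 125.6 CPM against 67.5 and 72.0 CPM there, a change of -0.71 ± 0.10 (edgeR, adjusted p = 0.000927). Neither gene overlapped between the genotypes in the class sum. Its clusters differed, however. In the largest one, led by Krt79 and Defb6, Skint6 was at 315.8 and 406.8 CPM against 129.0 and 116.3 CPM and Skint5 at 104.7 and 116.1 CPM against 49.1 and 67.25 CPM (adjusted p = 4.76e-05 and 0.00423 for the cluster fitted alone). In the cluster led by 2310046K23Rik Skint6 overlapped, at 418.5 and 403.8 CPM against 428.1 and 351.5 CPM, and Skint5 was higher in both CerS4epi-/- mice, at 231.7 and 253.4 CPM against 189.6 and 208.1 CPM (adjusted p = 0.9715 and 0.2815, neither called). In the Cst6 cluster, which held more cells in CerS4epi-/- mice and little of either gene, Skint6 was at 27.2 and 42.1 CPM against 22.5 and 17.5 CPM and was not called (adjusted p = 0.3985), so that the class sums also mix the clusters in other proportions. In basal-like cells Skint6 and Skint5 changed by -0.71 ± 0.11 and -0.72 ± 0.12 (edgeR, adjusted p = 0.00983 and 0.0142). Step 2, whose cells also carry Krt1 and Krt10, gave most of the Skint6 counts of this class. In the control mice it held 1041 of 1473 and 1299 of 1732 counts. The background moved the same way: in T cell-like cells Skint6 was at 70.5 and 106.5 CPM in the control mice and 37.5 and 59.9 CPM in the CerS4epi-/- mice, and Skint5 at 101.9 and 45.6 CPM against 3.41 and 15.35 CPM, and its part in the basal result was not tested. At step 1 Skint6 was at 38.6 and 41.9 CPM against 21.0 and 28.1 CPM, below its T cell-like level in each mouse. In step 2 cells, where Skint6 stood above its T cell-like level in each mouse, it was at 288.1 and 283.4 CPM against 187.7 and 144.0 CPM.

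In differentiated-like cells Skint6 was at 630.1 and 627.1 CPM in the control mice and 525.1 and 516.0 CPM in the CerS4epi-/- mice, a change of -0.28 ± 0.07 (edgeR, adjusted p = 0.0476), and the call was lost without control replicate 1 (adjusted p = 0.0937), control replicate 2 (0.102), CerS4epi-/- replicate 1 (0.0734) or CerS4epi-/- replicate 2 (0.176). Skint5 had -0.34 ± 0.09 there (edgeR, adjusted p = 0.0588), -0.43 without control replicate 1 and -0.44 without CerS4epi-/- replicate 2. It overlapped at step 3, at 164.1 and 174.7 CPM against 157.7 and 176.7 CPM, and was called at neither step 3 nor step 4. The class joins these steps. Step 4 gave 5008602 of 10330656 and 6004914 of 11222627 counts in the control mice. In the CerS4epi-/- mice it gave 3950241 of 9397499 and 2794656 of 6316157. The part of that mix was not tested for any member.

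**Figure D2:**
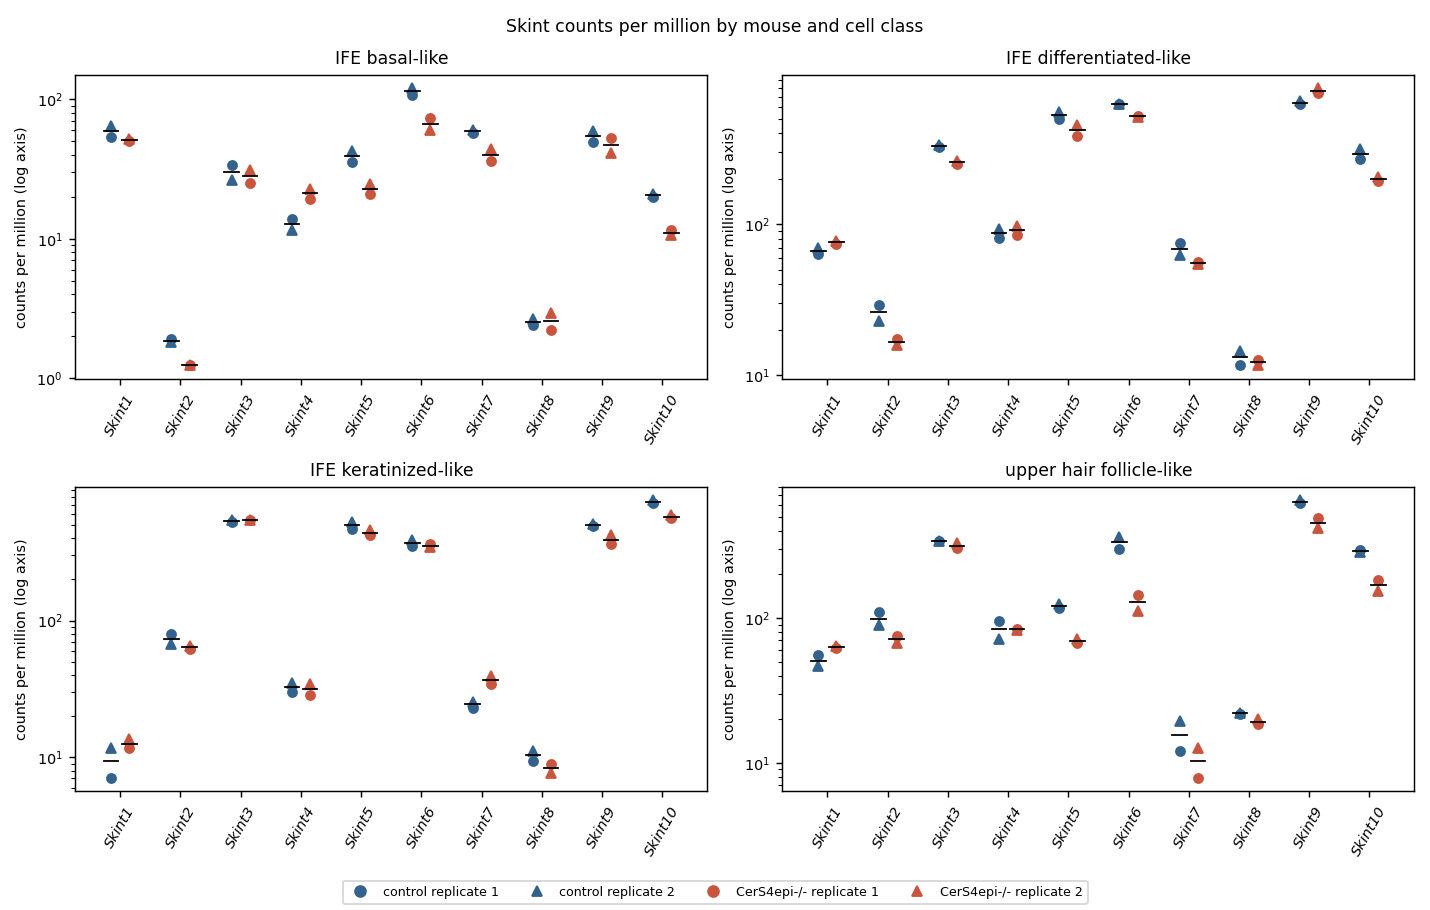
Levels in CPM (y axis, log scale) of each Skint gene in 4 keratinocyte classes; each point is 1 mouse and black bars are group means. Skint10 is lower in both CerS4epi-/- mice than in both control mice in each class, and Skint6 is at 144.2 and 112.4 against 300.5 and 364.3 in upper hair follicle-like cells.

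Skint2 and Skint3 were also lower in differentiated-like cells. Skint3 was at 326.8 and 337.1 CPM in the control mice and at 251.1 and 262.2 CPM in the CerS4epi-/- mice, a change of -0.38 ± 0.07 (edgeR, adjusted p = 0.0157), and Skint2 at 29.1 and 22.9 CPM against 17.35 and 15.7 CPM, a change of -0.65 ± 0.15 (adjusted p = 0.0351). Neither gene overlapped between the genotypes. Without CerS4epi-/- replicate 1 the adjusted p was 0.0513 for Skint3 and 0.0572 for Skint2, and without CerS4epi-/- replicate 2 it was 0.0503 and 0.153. When the Krt77 cluster of step 5, unnamed by the marker rule, was counted as differentiated, neither passed.

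Skint9 did not move in 1 direction. In upper hair follicle-like cells it was at 618.3 and 645.9 CPM in the control mice and at 489.6 and 419.1 CPM in the CerS4epi-/- mice, a change of -0.40 ± 0.10 (edgeR, adjusted p = 0.0243), and in keratinized-like cells at 496.0 and 508.6 CPM against 361.6 and 421.5 CPM, a change of -0.26 ± 0.08 (adjusted p = 0.0491). In differentiated-like cells both CerS4epi-/- mice were above both control mice, at 744.6 and 795.5 CPM against 630.7 and 651.3 CPM, with 0.25 ± 0.07 (edgeR, adjusted p = 0.0727), which did not pass. Step 4 fitted alone was called higher, at 1034 and 1166 CPM against 843.9 and 864.8 CPM in the control mice. Of the upper hair follicle-like clusters fitted alone, only the Cst6 cluster was called, lower. In the 2310046K23Rik cluster both CerS4epi-/- mice were higher, at 577.3 and 579.9 CPM against 486.5 and 515.8 CPM. The first call was lost without control replicate 1 (adjusted p = 0.0684), control replicate 2 (0.0860) or CerS4epi-/- replicate 2 (0.213), and the second without control replicate 2 (0.0882) or CerS4epi-/- replicate 1 (0.240).

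The early genes parted. Skint7 was lower in basal-like cells, at 57.6 and 60.2 CPM in the control mice and 36.15 and 43.9 CPM in the CerS4epi-/- mice, a change of -0.51 ± 0.10 (edgeR, adjusted p = 0.0268) that did not pass without control replicate 1 (0.0523), control replicate 2 (0.0939) or CerS4epi-/- replicate 1 (0.0632). No basal-like cluster fitted alone was called for Skint7 (edgeR). At step 1 it was at 51.0 and 54.3 CPM in the control mice and 31.3 and 43.9 CPM in the CerS4epi-/- mice. At step 2 it was at 108.3 and 95.25 CPM against 68.7 and 82.4 CPM. The basal-like cluster led by Aldh3a1 and Sostdc1 had a mean of 6.69 CPM. That cluster held 661 and 508 cells in the controls, and 1139 and 1046 in the CerS4epi-/- mice. The class sums mix the clusters in other proportions. In keratinized-like cells Skint7 was higher, at 34.4 and 39.5 CPM against 23.1 and 25.55 CPM, a change of 0.69 ± 0.11 (edgeR, adjusted p = 0.00339). The higher level was that of step 6, given above. At step 7 both CerS4epi-/- mice, at 4.56 and 5.41 CPM, lay below the control mice, at 7.82 and 8.75 CPM, and where the class held none of the step 6 cells the change was -0.36 without Harmony and -0.62 with another seed, neither past the threshold.

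Skint1, the member with the known role in T cell selection, passed in none of the 4 classes in edgeR's test. Its levels in basal-like cells were 54.0 and 64.8 CPM in the control mice and 50.4 and 51.7 CPM in the CerS4epi-/- mice, and in differentiated-like cells 63.8 and 69.2 CPM against 74.1 and 77.3 CPM. The log2 fold changes (± SE) were -0.16 ± 0.10 in basal-like, 0.17 ± 0.08 in differentiated-like, 0.49 ± 0.23 in keratinized-like and 0.38 ± 0.12 in upper hair follicle-like cells. The adjusted p were 0.382, 0.2705, 0.196 and 0.06135 (edgeR). It passed in keratinized-like cells without control replicate 2 (0.93, adjusted p = 0.00426) and in upper hair follicle-like cells without control replicate 1 (0.54, adjusted p = 0.0438). Among clusters fitted alone after the data had been seen, Skint1 was called in opposite directions (edgeR). At step 4 it was called higher: both CerS4epi-/- mice, at 53.2 and 49.0 CPM, were above both control mice, at 35.3 and 37.5 CPM. In the basal-like cluster led by Aldh3a1 and Sostdc1 it was called lower, with the CerS4epi-/- mice at 19.4 and 17.0 CPM against 40.7 and 42.3 CPM.

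Skint4 was higher in basal-like cells, at 13.9 and 11.6 CPM in the control mice and 19.4 and 22.9 CPM in the CerS4epi-/- mice, a change of 0.78 ± 0.13 (edgeR, adjusted p = 0.0142). At step 1 it was at 5.16 and 4.94 CPM against 7.16 and 10.99 CPM. The Aldh3a1 cluster had more Skint4, at 41.4 and 31.95 CPM against 48.2 and 50.75 CPM, and held 661 and 508 cells in the controls, and 1139 and 1046 in the CerS4epi-/- mice, so that the class sums mix the clusters in other proportions. None of the 4 basal-like clusters fitted alone was called (adjusted p = 0.0991 at step 1, 0.501 at step 2, 0.165 in the Aldh3a1 cluster and 0.802 in the cluster of dividing cells led by Top2a). With at most 10% mitochondrial counts per cell the change was 0.39 (adjusted p = 0.293). The background moved the same way in Langerhans cell-like cells, at 13.9 and 0 CPM in the control mice and 18.0 and 27.9 CPM in the CerS4epi-/- mice, and in T cell-like cells Skint4 was at 0 CPM in 3 mice and at 24.6 CPM in CerS4epi-/- replicate 2. Its part in the basal result was not tested. In the upper hair follicle-like cluster led by Cst6, fitted alone after the data had been seen, Skint4 was called lower (edgeR). It was at 181.9 and 165.1 CPM in the control mice and at 87.4 and 79.95 CPM in the CerS4epi-/- mice. The other upper hair follicle-like clusters were not called for it. Skint8 passed in no class, and its 4 mice were between 18.5 and 22.1 CPM in the upper hair follicle and between 2.21 and 2.92 CPM in basal-like cells.

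**Figure D3:**
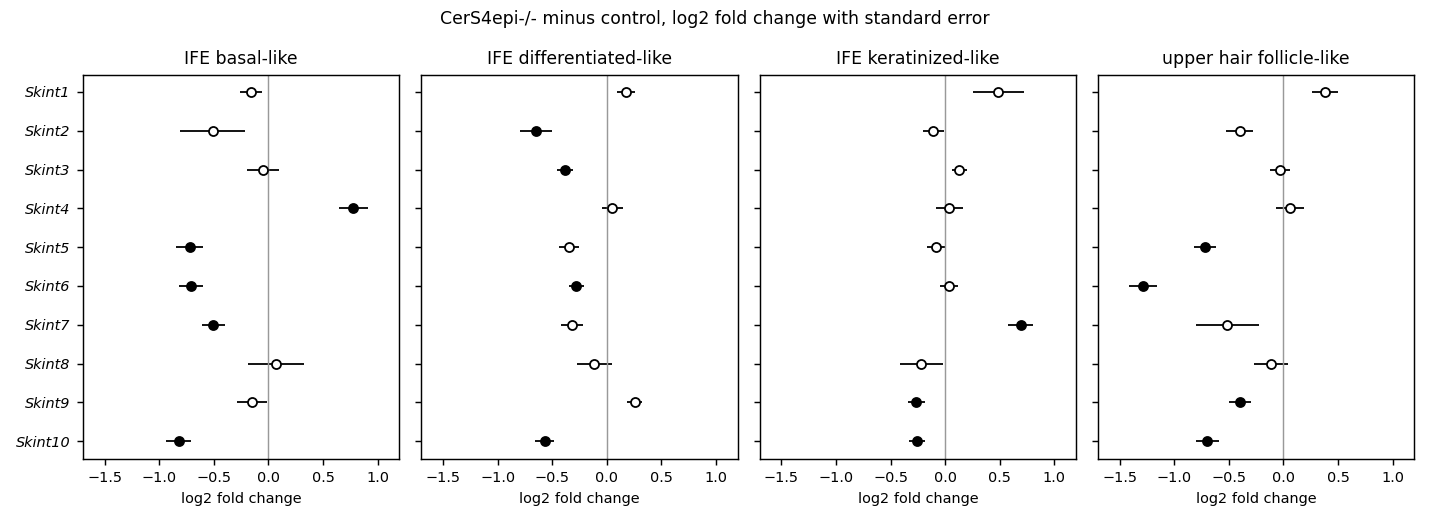
Log2 fold change of each Skint gene between CerS4epi-/- and control mice (x axis; bars are standard errors; filled points have an adjusted p below 0.05) in 4 keratinocyte classes. Filled points lie left of 0 except Skint4 in basal-like and Skint7 in keratinized-like cells.

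In all, 5 of 10 members were called in basal-like cells, 4 lower and 1 higher, where 7.16% of all genes were called, 2.82% lower and 4.34% higher. In differentiated-like cells 4 were called, all lower (5.29% of all genes, 2.35% lower and 2.93% higher). In keratinized-like cells 2 were lower and 1 higher (14.4%, 5.82% lower and 8.63% higher), and in upper hair follicle-like cells 4 were called, all lower (13.6%, 5.71% lower and 7.87% higher). The median log2 fold changes of the members were -0.34, -0.30, -0.03 and -0.40, beside 0.005, 0.002, -0.019 and 0.005 over all genes tested. The genotypes did not overlap, with CerS4epi-/- lower, for 6, 6, 5 and 7 members in these 4 classes, and the same held for 35.7%, 25%, 40.9% and 35.8% of all genes tested. They did not overlap with CerS4epi-/- higher for 1, 2, 2 and 1 members, against 20.8%, 27.4%, 18.9% and 22.8% of all genes. In T cell-like and Langerhans cell-like cells 3 members each could be tested, and edgeR and DESeq2 called 0 of them, where edgeR called 0.0445% and 0.127% of all genes. At an unadjusted p below 0.05 there was 1 in T cell-like cells, Skint5, by either tool, and 0 in Langerhans cell-like cells.

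A cluster of 734 cells that the marker rule left unnamed, led by Krt6a, S100a6, Sox9 and Lhx2, genes of the hair follicle, was tested by itself after the data had been seen. In edgeR 7 of the 9 members tested were called, 3 higher and 4 lower in CerS4epi-/- mice, where 13.3% of all genes were called, 6.73% higher and 6.59% lower. Skint3 was at 42.6 and 38.7 CPM in the control mice and at 97.4 and 102.4 CPM in the CerS4epi-/- mice, and Skint2 at 16.6 and 0 CPM against 49.2 and 37.0 CPM. Skint6 was at 62.7 and 95.2 CPM against 16.4 and 16.15 CPM, and Skint10 at 18.9 and 23.8 CPM against 8.20 and 2.36 CPM. The summed level overlapped, at 267.3 and 333.3 CPM against 270.4 and 241.1 CPM, and lay between the lowest T cell-like and the highest Langerhans cell-like sum, 119 and 507 CPM. The cells numbered 123 and 94 in the controls, and 238 and 279 in the CerS4epi-/- mice. Several calls rest on few counts. Summed per mouse, controls first, Skint10 had 8, 8, 9 and 3, and Skint2 7, 0, 54 and 47. Skint8 had 2, 1, 20 and 24, and Skint3 18, 13, 107 and 130. Another seed gave such a cluster, of 738 cells. Leiden resolution 1.2 gave Krt6a-led clusters named inner bulge-like (175 cells) and upper hair follicle-like (905 cells). Without Harmony these held 240 and 780 cells. Whether their mix differed between the genotypes was not tested.

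Whether a fold change differed between classes was tested as an interaction. Between differentiated-like and basal-like cells edgeR and DESeq2 called 0 of the 10 members, where edgeR called 0.502% of all genes, and 6 members had an unadjusted p below 0.05 in edgeR. Without control replicate 1, and without CerS4epi-/- replicate 1, it called 1. Between keratinized-like and basal-like cells 6 were called, 5 with a higher and 1 with a lower difference, where 8.07% of all genes were (4.19% higher and 3.88% lower), and 4 without any one mouse. Between upper hair follicle-like and basal-like cells 3 were called, 1 higher and 2 lower, where 6.01% of all genes were (2.71% higher and 3.31% lower), and 1 without CerS4epi-/- replicate 2. Skint6, lower in basal-like cells, had genotypes that overlapped in keratinized-like cells, at 353.1 and 387.2 CPM against 364.7 and 343.1 CPM (difference of the log2 fold changes 0.77 ± 0.11, edgeR adjusted p = 0.000297), and a larger fall in upper hair follicle-like cells (difference -0.59 ± 0.12, adjusted p = 0.00273).

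The summed level of the family in differentiated-like cells was 2618 and 2749 CPM in the control mice and 2345 and 2487 CPM in the CerS4epi-/- mice, and in upper hair follicle-like cells 1966 and 2007 CPM against 1436 and 1331 CPM. At step 5, given above, and at step 4, at 3677 and 3749 CPM against 3475 and 3790 CPM, the genotypes overlapped. At the other steps the summed level was lower in both CerS4epi-/- mice. At step 3 the values were 1622 and 1599 CPM against 1526 and 1453 CPM, and at step 2 they were 789.4 and 796.2 CPM against 594.7 and 540.5 CPM. Single steps were not tested for the summed level. Over all keratinocytes the summed level was 1978 and 2137 CPM against 1578 and 1560 CPM, a mean of 2058 ± 112 CPM (SD, n = 2) against 1569 ± 12.7 CPM. In such a sum, fewer cells of a type and less RNA per cell cannot be told apart, and the share of differentiated-like cells, given above, moved with it; its part was not tested. Skint1 over all keratinocytes was at 43.1 and 47.8 CPM against 47.4 and 48.9 CPM, an overlap.

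T cell-like cells were led by Cd7, Trdc, Ctla2a, Trgc1, Cd3e and Cd3g, and they carried the integrin Itgae at 509.6 to 682.4 CPM. They made up 1.25% (95% exact binomial interval 1.02 to 1.51) and 0.726% (0.562 to 0.923) of cells in the control mice and 1.54% (1.30 to 1.82) and 1.93% (1.63 to 2.27) in the CerS4epi-/- mice, where the intervals cover counting error only. The genotypes did not overlap, but with 2 mice against 2 the exact two-sided permutation test gave p = 0.333, the smallest it allows. Cells with at least 2 of Cd3d, Cd3e and Cd3g were 1.19% and 0.726% against 1.53% and 1.84%. T cell-like cells were shallow, with median depths of 1617 and 1540 counts in the controls, and 1903 and 1758 in the CerS4epi-/- mice, and with at least 2000 counts per cell the log2 ratio of the group means was 1.84 in place of 0.81. The mice with more T cell-like cells were thus those with the lower summed Skint level over all keratinocytes, while their Skint1 levels overlapped those of the control mice. A correlation over 4 mice was not computed.

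**Figure D4:**
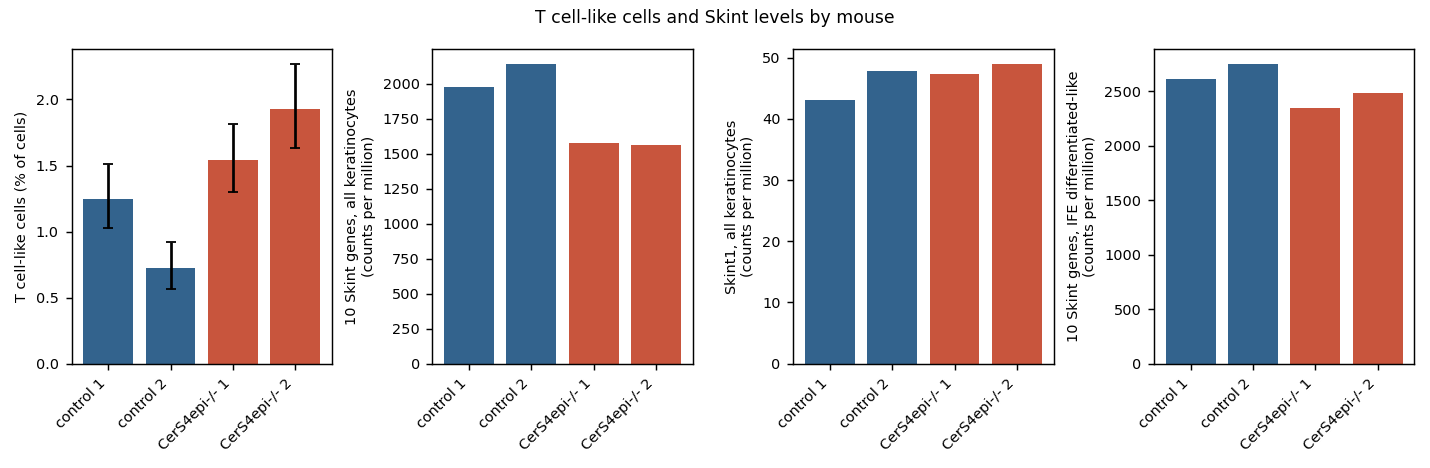
For each mouse (x axis), T cell-like cells in percent of cells with 95% exact binomial intervals, the summed Skint level and the Skint1 level over all keratinocytes, and the summed level in IFE differentiated-like cells, all levels in CPM. Both CerS4epi-/- mice have more T cell-like cells and less summed Skint than both control mice, and Skint1 overlaps.

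Genes that partner with these T cells were set beside the family. Of 8 butyrophilin relatives, which belong to the same superfamily as the Skint genes, none had enough counts to be tested in a keratinocyte class. Of 26 keratinocyte ligands, cytokines and adhesion partners of epidermal T cells, 17 were tested in differentiated-like cells, where 3 were higher in CerS4epi-/- mice and 0 lower, beside 5.29% of all genes called. They were the chemokine Ccl20, at 1.84 and 2.05 CPM in the control mice and 14.7 and 4.43 CPM in the CerS4epi-/- mice (log2 fold change 2.37 ± 0.49, edgeR adjusted p = 0.0242), the adhesion molecule Icam1 (0.73 ± 0.18, adjusted p = 0.0453) and the skin chemokine Ccl27a (0.62 ± 0.10, adjusted p = 0.00987). Tgfb1 and Tslp, which were not called, were at most at 1.55 CPM in each mouse. In upper hair follicle-like cells 8 of 16 were higher and 0 were lower, beside 13.6% of all genes. The higher ones included the costimulatory ligand Icosl (3.98 ± 0.50, edgeR adjusted p = 0.000443) and the cytokine Il1a (2.75 ± 0.40, adjusted p = 0.00101). Both were low in the controls. Icosl was at 1.76 and 0.402 CPM in the control mice and 13.4 and 23.1 CPM in the CerS4epi-/- mice. Il1a was at 1.17 and 2.41 CPM against 9.36 and 12.8 CPM. The sums of this class mix its clusters in other proportions, as given above, and the part of that mix was not tested. In basal-like cells 1 of 21 was higher, Icosl, and 1 lower, Tgfb2, close to the 7.16% of all genes called there, and in keratinized-like cells 3 of 15 were higher and 1 lower, beside 14.4% of all genes. The medians of the list in differentiated-like and upper hair follicle-like cells were 0.037 and 0.336, beside 0.002 and 0.005 over all genes.

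Of 20 receptors and effectors of T cells, 12 were tested in T cell-like cells and edgeR and DESeq2 called 0, with 4 and 2 at an unadjusted p below 0.05. Gzmc, a granzyme, was at 15.7 and 15.2 CPM in the control mice and at 133.1 and 64.5 CPM in the CerS4epi-/- mice (edgeR, adjusted p = 0.2099), and Areg, a ligand of the epidermal growth factor receptor, at 240.3 and 121.7 CPM against 423.1 and 482.1 CPM (adjusted p = 0.162). The genotypes did not overlap in either gene. Il7r was at 57.5 and 15.2 CPM against 44.4 and 104.4 CPM, an overlap, and Cxcr6 at 125.4 and 190.1 CPM against 105.8 and 67.6 CPM.

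Across the 16 sums, the genes outside the family whose log2 levels followed Skint9 most closely, among 9842 genes with a mean of at least 5 CPM, were Jup, the plakoglobin of cell junctions (r = 0.994), Ablim1 (0.988), Gltp, a glycolipid transfer protein (0.986), Ly6g6e (0.984) and Cop1 (0.983). These r describe 16 sums that share 4 mice and carry no test. Within the family the closest pair was Skint3 and Skint10 (r = 0.98), followed by Skint2 and Skint3 and by Skint5 and Skint6 (both 0.94), of which the last pair shares part of its counts by estimation. Skint1 had r between -0.53 and 0.34 with the other 9 members, and 0.15 with Skint7, the other early gene.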

How the data were processed

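Single cells of back skin from 2 control and 2 CerS4epi-/- mice were labelled with sample tags and measured on the BD Rhapsody. Reads were assigned by those tags, and counts were given for each mouse. The authors trimmed reads with fastp 0.23.2, aligned them with STAR 2.7.10a (STARsolo) to GRCm39 with Gencode protein-coding and long non-coding genes, and deposited estimated counts (expected counts) of molecules for each gene and barcode, in which a read that maps to several genes is shared between them by an expectation-maximization step. No cell filter had been applied by the authors, and the values are not normalized. Strand and intron handling followed their gene model, which counts reads over the whole gene.

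A barcode was kept from 1200 counts on and up to 20% mitochondrial counts. Counts were scaled with scran 1.30.0, and 3000 variable genes, 100 components, a Harmony correction over libraries, 30 neighbours and Leiden clustering at a resolution of 0.8 (Scanpy 1.11.5, leidenalg 0.10.2, Python 3.11.15) gave the clusters. The Skint genes, their butyrophilin relatives and the keratinocyte ligands took no part in the clustering. Clusters were named from marker lists, with at least 3 detected markers, and a cluster whose leading genes held more markers of another list stayed unnamed. Scrublet marked 3 cells, which were removed, so it did not work as a doublet caller. The order of 7 clusters was set from IFE markers.

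For each mouse and class the counts of the cells were added up and rounded. Fold changes were tested with edgeR 4.0.16 (quasi-likelihood, TMM, filterByExpr, Benjamini-Hochberg over all genes, threshold 0.05; R 4.3.3), with each class fitted alone for the genotype, and with 1 fit of 16 sums and the mouse as a term for layers and interactions. The scripts were tested on simulated data. CPM is relative to the summed counts of the class, which were 6064124 to 16943894 in IFE classes, 2485047 to 7903558 in the upper hair follicle and 131476 to 325636 in T cell-like cells. Shares have exact 95% binomial intervals. The T cell share was compared by an exact two-sided permutation test (SciPy 1.17.1). Promoters are from RefSeq, GRCm38.p6, and were aligned with Biopython 1.88, without conversion of coordinates.

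The members and lists were chosen with earlier results of these data known. Named were all 10 members, of each list the 4 genes of largest fold change in differentiated-like (or T cell-like) cells, and the 5 genes most like the member with most counts. Upper hair follicle genes of the lists, and members described within clusters, were named after their values were seen. Alternatives were DESeq2 1.42.0, its size factors, no filter, other cell filters, whole-number entries only, other clusterings, and each mouse left out. Added after seeing the data were total counts without TMM, the Krt77 cluster counted as differentiated, cells with a barcode in another library left out, and each cluster fitted alone.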

Additional observations from a re-analysis of the deposited data

Results flagged for a closer look

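For 6 members the fold change between the genotypes differed between keratinized-like and basal-like cells in edgeR's interaction test, with adjusted p after Benjamini-Hochberg over all genes. The difference, keratinized-like minus basal-like on the log2 scale, was 1.22 ± 0.17 (SE; adjusted p = 0.000233) for Skint7, 0.77 ± 0.11 (0.000297) for Skint6, 0.65 ± 0.10 (0.000716) for Skint5, 0.58 ± 0.14 (0.0111) for Skint10, 0.66 ± 0.20 (0.04485) for Skint1 and -0.72 ± 0.20 (0.0288) for Skint4. Skint7 was lower in basal-like and higher in keratinized-like cells of CerS4epi-/- mice. The call of Skint1 was lost without control replicate 1 (adjusted p = 0.182), CerS4epi-/- replicate 1 (0.149) or CerS4epi-/- replicate 2 (0.2165), that of Skint4 without control replicate 2 (0.189), CerS4epi-/- replicate 1 (0.0736) or CerS4epi-/- replicate 2 (0.0633), and that of Skint10 without control replicate 1 (0.0729) or control replicate 2 (0.0594). With no Harmony, Leiden resolution 1.2 or another seed none of the 6 passed; the keratinized-like class then held 863, 1169 and 1009 cells in place of 2924 and 0, 151 and 0 of the 1906 cells of step 6.

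For 3 members it differed between upper hair follicle-like and basal-like cells (edgeR), by -0.59 ± 0.12 (adjusted p = 0.00273) for Skint6, 0.50 ± 0.14 (0.0428) for Skint1 and -0.74 ± 0.19 (0.0241) for Skint4. The call of Skint1 was lost without control replicate 2 (adjusted p = 0.502), CerS4epi-/- replicate 1 (0.110) or CerS4epi-/- replicate 2 (0.163), and that of Skint4 without control replicate 1 (0.0981) or CerS4epi-/- replicate 2 (0.102). With at most 10% mitochondrial counts per cell none of the 3 passed.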

How the results depend on the processing

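Of the results for single members, 873 kept direction and side of the threshold under an alternative, 108 lost a call, 28 gained one and 16 reversed. Skint10 in basal-like, differentiated-like and upper hair follicle-like cells, and Skint5 and Skint6 in basal-like and upper hair follicle-like cells, passed under all 18 alternatives. A further 31 uncalled results of members are given in the text without a fold change; 23 of them changed sign and 9 passed under some alternative.

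The reversals concern the keratinized-like class. Keratinized minus differentiated, Skint8 was -0.43 without TMM. With no Harmony, Leiden resolution 1.2 and another seed, Skint8 was -1.89, -2.42 and -2.01, Skint3 -0.50, -0.13 and -0.32, Skint5 -1.98, -2.02 and -1.98, and Skint10 -0.98, -0.59 and -0.86. With no Harmony and another seed the genotype change of Skint7 was -0.36 and -0.62, and with no Harmony the interaction of Skint10 was -0.18. The class then lacked most step 6 cells, because of how clusters were named. A cluster led by Lor and Wfdc21, as at step 6, was found under each of these settings. It held 2084 cells with no Harmony, 1809 with Leiden resolution 1.2 and 1951 with another seed. Its best list was the differentiated one, and the marker rule left it unnamed. In the main clustering the marker score of step 6 was 1.472 for the keratinized and 1.43 for the differentiated list.

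Genes called between the genotypes in basal-like, differentiated-like and keratinized-like cells were 952, 638 and 1599, and 1548 in the upper hair follicle. DESeq2 called 351 in differentiated-like, 852 in keratinized-like (with 1 member) and 808 in upper hair follicle-like cells. With no filter 1997 and 1374 (with 7 members) were called in basal-like and differentiated-like cells. With at most 10% mitochondrial counts 518 genes and 3 members were called in basal-like cells. In keratinized-like cells no Harmony, Leiden resolution 1.2 and another seed gave 124, 666 and 430. With the Krt77 cluster counted as differentiated 1 member was called in differentiated-like cells. The cause was not tested.

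For the interaction of differentiated-like with basal-like cells (70 genes, 0 members), no filter gave 253 and 3, no TMM 112 genes, at most 10% mitochondrial counts 29 genes, no Harmony 154 and 2, the Krt77 cluster counted 151 and 3, and whole-number entries, leaving out the 5% highest Scrublet scores, Leiden resolution 1.2 and another seed 1 member each. For keratinized-like with basal-like cells (1126 genes, 6 members), at most 10% mitochondrial counts gave 654 genes, and no Harmony, Leiden resolution 1.2 and another seed 212, 504 and 435 genes with 0, 1 and 1 members. For the upper hair follicle (839 genes, 3 members), DESeq2 gave 1 member, and at most 10% mitochondrial counts and another seed 0.

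With each mouse left out, genes called ranged from 626 to 1008 in basal-like, 326 to 942 in differentiated-like, 905 to 1764 in keratinized-like and 1090 to 1751 in upper hair follicle-like cells, and members called from 4 to 5, 1 to 4, 1 to 3 and 4 to 5. The interactions ranged from 6 to 82, 376 to 834 and 382 to 823 genes and from 0 to 1, 4 to 4 and 1 to 2 members. The log2 ratio of the T cell-like share ranged from 0.47 to 1.26, and was 1.84 with at least 2000 counts per cell.

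The log2 ratio of the summed Skint level was -0.43 in basal-like cells, and -0.30 with no Harmony and -0.53 with another seed. It was -0.18 in keratinized-like cells, and -0.55, -0.37 and -0.51 with no Harmony, Leiden resolution 1.2 and another seed. It was -0.52 in the upper hair follicle, and -0.64 with no Harmony and -0.60 with Leiden resolution 1.2.

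Without TMM the share of higher calls moved from 60.6% to 45.5% in basal-like, 59.7% to 36.6% in keratinized-like and 57.9% to 43.4% in upper hair follicle-like cells, from 48.6% to 33.8% and 48.5% to 36.1% for differentiated and upper hair follicle minus basal, and from 52.9% to 73.2% and 52.0% to 38.7% for the first 2 interactions. DESeq2's size factors moved the last to 62.0%.

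Replicate numbers did not pair the mice: deviations of same-numbered samples had r of 0.069, 0.059, 0.04 and -0.031 in the 4 classes, with 2 pairs. A replicate block gave 2053, 1805, 1997 and 1861 genes and 5, 7, 3 and 6 members.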

Other observations

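Skint11, a gene of the same family outside the 10 members, had 25617 counts in the cells kept. Its level over the 4 mice was 32.1 CPM in basal-like, 189.3 CPM in differentiated-like, 32.3 CPM in upper hair follicle-like and 315.4 CPM in keratinized-like cells.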
